A study of Mus musculus with 6 samples.

Results

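The 78 genes described here are the mouse histone genes of 2 kinds. They were the rows of the deposited count table whose symbol began with Hist1h, Hist2h, Hist3h or Hist4h, the replication-dependent clusters (70 genes), and the named variants H2afz, H2afx, H2afy, H2afv, H3f3a, H3f3b, H1f0 and H1fx (8 genes). The table held 57010 genes in all, and the rule used symbols alone. Symbols are those of GENCODE M21, an older release in which the cluster names still carry their cluster number. RNA was sequenced from CT26, a mouse colon carcinoma cell line, in libraries labelled sgCdk10, named for a guide RNA against Cdk10 (3 libraries), and in libraries labelled sgControl, with a control guide (3 libraries). The labels name no other treatment, do not give the time after guide delivery, and do not say whether the cells were a clone or a pool.

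Replication-dependent histone genes supply the bulk of H1, H2A, H2B, H3 and H4 while DNA is copied. Their mRNAs normally end in a short stem-loop instead of a poly(A) tail, and the stem-loop is bound by SLBP, which directs the cutting of the 3′ end and the translation of the message. Variant histones are made throughout the cell cycle from ordinary genes, mostly with introns and polyadenylated mRNAs, and replace the replication-dependent forms at particular places in chromatin. Several replication-dependent genes can also give polyadenylated mRNAs from a site further downstream, in particular in cells that have left the cycle.

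Library totals lay between 17532202 and 19258309 counts, so that 3 counts, taken as the floor of detection, corresponded to 0.156 to 0.171 CPM (counts scaled to a common total per library); the floor covers counting error only. Cdk10 (chr8:123224842-123232250 on GRCm38, plus strand), the targeted kinase gene, averaged 11.5 ± 1.24 CPM in sgCdk10 and 20.3 ± 1.05 CPM in sgControl (SD, n = 3 each), a log2 fold change of -0.82. The sgControl library of replicate 3 stood apart from the other sgControl libraries: its chi-square per degree of freedom over genes was 4.08 and 4.14 against them, where other pairs of 1 group gave 1.53 to 1.61. Of the colon epithelial markers, Epcam was at 0 in all 6 libraries, and Cdh1 and Vil1 had at most 1 and 2 counts in any library. Of 17 leukocyte markers, 7 were at 0 in all 6 libraries, Ptprc had at most 2 counts, and 2 were tested. Cd74 had 18, 14 and 23 counts in sgCdk10 and 13, 17 and 15 counts in sgControl and was not called, and Cd68 held most of their summed 13.8 to 15.2 CPM in sgCdk10 and 9.93 to 10.3 CPM in sgControl. Cd68 was called higher (edgeR's quasi-likelihood test over all genes, adjusted p below 0.05), as were 22.1% of all genes tested. Endothelial and fibroblast markers summed to 1512 to 1534 CPM in sgCdk10 and 1318 to 1465 CPM in sgControl, almost all of it collagen Col1a2. Of these 10 markers 5 were tested, 3 called higher and 1 lower, beside 22.1% and 20.4% of all genes. The epithelial list summed to 59.2 to 60.1 CPM in sgCdk10 and 37.6 to 41.9 CPM in sgControl. Of these 10 markers 4 were tested. The keratin genes Krt18, at 37.5 ± 1.04 CPM in sgCdk10 and 23.9 ± 1.44 CPM in sgControl (SD, n = 3 each), and Krt20 were called higher, and Muc2 lower, a gene that passed the filter on low counts through its sgControl libraries. The part of these markers in the histone results was not tested.

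The elements that mark the ends of histone mRNAs are shown first, since a library made from RNA selected by its poly(A) tail holds few mRNAs that end in a stem-loop. The sense strand of the annotated transcripts was searched for the stem-loop pattern of 16 bases (GG, any pair of bases, CTT, any base, T, any base, AG, any pair of bases, CC) and for the poly(A) signals AATAAA and ATTAAA in the last 50 bases. The pattern was found in 46 of the 70 replication-dependent genes, in 1 of the 8 variants, and in 89 of 21826 other coding genes (0.408%). A gene whose model ends before its stem-loop counts as lacking it. Among genes without the pattern, the models of Hist1h4k, Hist1h2bl and Hist1h2ai had only 312, 381 and 393 bases. Whether the models are complete was not tested. The sequences below are from GENCODE M21 transcripts on GRCm38, written 5′ to 3′ in the sense of the gene; capitals mark the stem-loop, and the flanking bases are in lower case. They are the replication-dependent genes with enough counts for a test, with H2afx, the one variant that carries the pattern.
Hist1h1c: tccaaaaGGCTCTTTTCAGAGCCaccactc
Hist1h2be: aaccaaaGGCTCTTTTCAGAGCCacccaac
Hist1h2bg: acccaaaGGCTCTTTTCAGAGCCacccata
Hist1h3g: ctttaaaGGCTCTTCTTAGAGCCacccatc
Hist1h4i: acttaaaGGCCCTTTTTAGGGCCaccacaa
Hist2h4: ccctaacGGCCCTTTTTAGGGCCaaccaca
H2afx: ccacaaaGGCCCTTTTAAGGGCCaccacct
These lie at chr13:23739505-23739534 (plus strand) for Hist1h1c, chr13:23585524-23585553 (minus) for Hist1h2be, chr13:23571836-23571865 (plus) for Hist1h2bg and chr13:23535882-23535911 (plus) for Hist1h3g. Those of Hist1h4i, Hist2h4 and H2afx lie at chr13:22040959-22040988 (minus), chr3:96262932-96262961 (minus) and chr9:44335233-44335262 (plus). The first 3 share 1 stem-loop sequence, which 26 genes of the H1, H2A, H2B and H3 classes carried in all. The 47 genes with the pattern used 9 distinct sequences, and the 12 H4 genes used 4 of them, none found in another class. The pattern was not in the annotated transcripts of Hist2h2be or Hist1h2bc.

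A poly(A) signal near an annotated end was found in 17 of the 70 replication-dependent genes, in all 8 variants, and in 78.0% of other coding genes. Those of the replication-dependent genes that had the most counts, and of H2afx and H2afz for comparison, are given here with the signal in capitals.
Hist2h2be: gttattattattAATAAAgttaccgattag
Hist1h1c: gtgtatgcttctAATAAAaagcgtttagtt
Hist1h2be: gttgtgttccttATTAAAgcattcctgatt
Hist1h4i: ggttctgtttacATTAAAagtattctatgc
Hist2h4: tcgtatacataaAATAAAatcttaaaaaca
H2afx: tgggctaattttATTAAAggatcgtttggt
H2afz: ctctgcttactaATTAAAcagtgcatctgt
They lie at chr3:96223705-96223734 (plus strand) for Hist2h2be, chr13:23740330-23740359 (plus) for Hist1h1c, chr13:23583672-23583701 (minus) for Hist1h2be and chr13:22040639-22040668 (minus) for Hist1h4i. Those of Hist2h4, H2afx and H2afz lie at chr3:96261697-96261726 (minus), chr9:44336031-44336060 (plus) and chr3:137866885-137866914 (plus). In Hist1h1c, Hist1h2be, Hist1h4i and Hist2h4 the transcript model ran on past the stem-loop, by 840, 1861, 330 and 1257 bases, and then ended at the signal. H2afx had the same layout, with 822 bases after its stem-loop. A match is a match of letters and no more, and a transcript model that ends early may lack one. Which end the sequenced molecules had cannot be read from gene counts.

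The count table held little replication-dependent histone RNA. The 70 genes together had 541, 553 and 577 counts in sgCdk10 and 378, 370 and 382 counts in sgControl. The 8 variants had 32990, 32307 and 35285 counts in sgCdk10 and 34059, 34313 and 32775 counts in sgControl. Of the 70, 18 were at 0 in all 6 libraries, 28 reached the floor of 3 counts in at least 1 library, and 10 reached it in all 6. Whether the RNA was selected by its poly(A) tail or by removal of ribosomal RNA is not given in the sources used here. Among RNAs listed as lacking a standard poly(A) tail, 8 of the 14 listed rows in the table were at 0 in all 6 libraries. Rpph1, Rmrp, Snord13 and Rny3 were among those at 0. Rmrp stands in more than 1 of these rows, which overlap on the same strand, so its reads may have been dropped. Rpph1, Snord13 and Rny3 are 319, 104 and 102 bases long, and whether RNAs this short were kept in the libraries was not tested. Other short RNAs of the list did have counts in all 6 libraries. Rnu73b, of 71 bases, had 15 to 29, and Rny1, of 112 bases, had 2 to 9. The nuclear RNAs Malat1 and Neat1, also listed, were abundant, and gene counts do not tell which 3′ end their molecules had.

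A few genes held most of these counts. The H2B gene Hist2h2be held 31.9% of all 2801 replication-dependent counts over the 6 libraries, and the 4 most counted genes, Hist2h2be, Hist1h1c, Hist1h2bc and Hist1h2be, held 73.9%. By class, 4 of 19 H2B genes, 2 of 13 H4 genes, 1 of 12 H3 genes, 1 of 6 H1 genes and 0 of 20 H2A genes had enough counts for the test. The H2A class had 20, 17 and 22 counts over 20 genes in sgCdk10 and 16, 17 and 24 counts in sgControl. Nucleosomes need H2A and H2B in equal numbers. These sums describe the RNA counted in the libraries, and the histone supply of the cell was not measured.

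The 8 genes that entered the test had longer transcript models in the median, but not each of them. Their longest annotated transcript had a median of 1358 bases (530 to 2620), and the 62 genes that did not enter had a median of 514 bases (312 to 7425). Hist1h3g, Hist1h2bg and Hist1h4i, among the 8, had only 530, 618 and 727 bases. A poly(A) signal stood at an annotated end in 5 of the 8 and in 12 of the 62. The 17 genes with such a signal held 2023 of the 2801 counts (72.2%), with a median of 8 counts per gene over 6 libraries. The 53 genes without one had a median of 3 counts, and 14 of them were at 0, against 4 of the 17 with a signal. The annotated signal alone did not separate counted from uncounted genes: Hist1h2bc, Hist1h3g and Hist1h2bg had none in their models and were counted. Longer gene models also collect more reads, and length and the kind of end were not separated here.

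**Figure D1:**
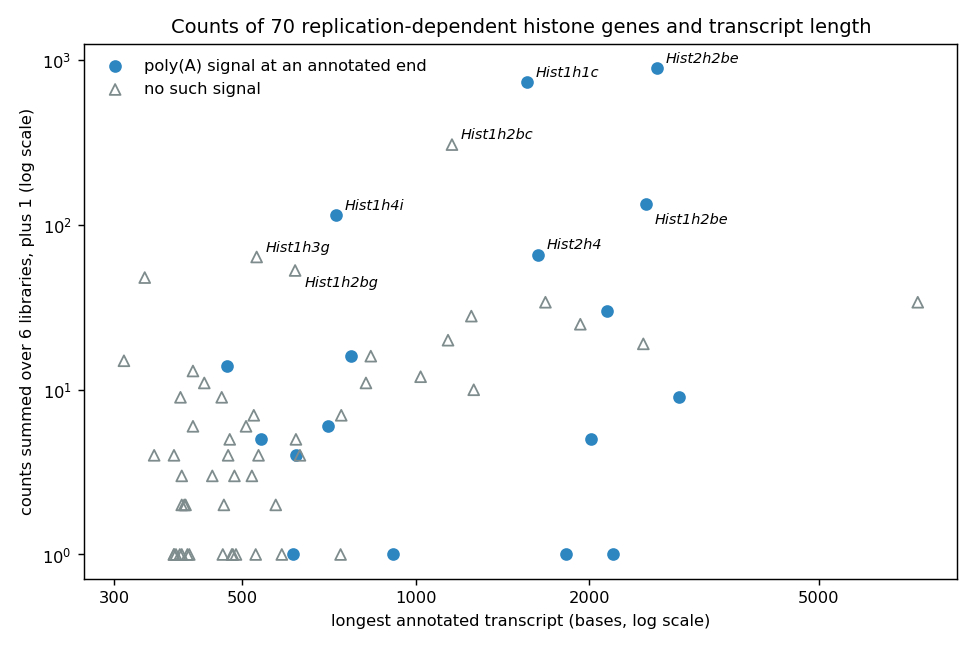
Counts summed over 6 libraries plus 1 (log scale) of the 70 replication-dependent histone genes, against the length of the longest annotated transcript in bases (log scale); filled circles have a poly(A) signal at an annotated end and open triangles do not. Most genes with short transcripts lie at the bottom, and the 8 labelled genes, which entered the test, lie at the top, with Hist2h2be and Hist1h1c highest.

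Summed over all 70 genes, the replication-dependent level was 29.8, 31.4 and 29.9 CPM in sgCdk10 and 21.3, 20.9 and 21.05 CPM in sgControl. All sgCdk10 libraries lay above all sgControl libraries, and the ratio of the means was 1.44. This sum is a description and was given no test. Without Hist2h2be the other 69 genes summed to 19.6 ± 0.244 CPM in sgCdk10 and 15.5 ± 0.609 CPM in sgControl (SD, n = 3 each), a ratio of 1.26. The 62 genes with too few counts for a test summed to 82, 75 and 94 counts in sgCdk10 and 59, 61 and 66 counts in sgControl, a ratio of 1.31 in CPM. In RNA from whole cultures, a different share of cells expressing a gene and a different amount of RNA per cell cannot be told apart.

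By class the ratios ran from 1.01 to 1.72. H2B genes summed to 16.9 ± 1.01 CPM in sgCdk10 and 9.83 ± 0.608 CPM in sgControl, a ratio of 1.72. H3 genes had 26, 30 and 39 counts in sgCdk10 and 15, 21 and 21 counts in sgControl. Of these, Hist1h3g alone had 12, 11 and 18 in sgCdk10 and 5, 9 and 8 in sgControl. H4 genes had 65, 49 and 55 counts in sgCdk10 and 46, 32 and 34 counts in sgControl. Of these, Hist2h4 alone had 16, 13 and 19 in sgCdk10 and 11, 3 and 3 in sgControl. The H1 and H2A classes overlapped between groups, with ratios of 1.09 and 1.01. By cluster, the 10 Hist2 genes on chromosome 3 had 204, 222 and 228 counts in sgCdk10 and 120, 87 and 113 counts in sgControl, a ratio of 1.99 in CPM. Hist2h2be alone had 186, 205 and 205 of these counts in sgCdk10 and 106, 83 and 109 in sgControl. It is also an H2B gene, and the Hist2 and H2B sums both consist mostly of it. The 56 Hist1 genes on chromosome 13 had 333, 327 and 340 counts in sgCdk10 and 252, 276 and 261 counts in sgControl, a ratio of 1.24. The 3 Hist3 genes on chromosome 11 and Hist4h4 on chromosome 6 were near the floor, with at most 7 counts in any library for the Hist3 sum and at most 2 for Hist4h4. Genes with a poly(A) signal had 394, 399 and 424 counts in sgCdk10 and 272, 265 and 269 in sgControl. Genes without it had 147, 154 and 153 in sgCdk10 and 106, 105 and 113 in sgControl. Neither sum overlapped between the groups, but single genes hold a large part of each. The first includes Hist2h2be. The second includes Hist1h2bc, with 57, 71 and 51 counts in sgCdk10 and 38, 45 and 45 in sgControl.

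Differences of single genes were tested with edgeR's quasi-likelihood test on all 13442 genes that passed its filter on low counts, with p-values adjusted over all of them by the Benjamini-Hochberg method at a threshold of 0.05. Of all genes tested, 42.5% were called, 22.1% higher and 20.4% lower in sgCdk10. The labels do not state whether each library is a culture of its own, so p-values reflect spread among libraries that may be technical only. Of the 70 replication-dependent genes, 8 were tested, and of those 3 were called higher and none lower (DESeq2, also run, called 1 higher and none lower). Hist1h3g reached the filter's level in 3 sgCdk10 and 0 sgControl libraries, and Hist2h4 in 3 and 1. Both thus passed through the group where they are higher, so these counts say nothing about the set as a whole.

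Hist2h2be (ENSMUSG00000068854, chr3:96221119-96223738, plus strand), an H2B gene, had 186, 205 and 205 counts in sgCdk10 and 106, 83 and 109 counts in sgControl. Every sgCdk10 library was far above every sgControl library. The mean level was 10.9 ± 0.723 CPM in sgCdk10 and 5.56 ± 0.752 CPM in sgControl (SD, n = 3 each), 1.95-fold higher in sgCdk10 (log2 fold change 0.96, SE 0.11, adjusted p = 1.1e-07 with edgeR). Per length, it stood at 4.14 CPM per kb of exon in sgCdk10 and 2.12 CPM per kb in sgControl. None of its 100-base windows occurred in another gene's transcripts. Its call held under every alternative run, with log2 fold changes of 0.86 to 1.02. Its nearest counted neighbours in the cluster, Hist2h2ab and Hist2h2ac, had at most 1 count in any library.

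Hist2h4 (ENSMUSG00000091405, chr3:96261682-96263311, minus strand), an H4 gene of the same cluster, had 16, 13 and 19 counts in sgCdk10 and 11, 3 and 3 counts in sgControl. The groups did not overlap, but sgControl replicate 1 lay near the sgCdk10 libraries. The log2 fold change was 1.44 (SE 0.42, 95% interval 0.56 to 2.31, adjusted p = 0.00788 with edgeR). Without sgControl replicate 1 it was 2.33, and across the 6 fits that each left out 1 library it lay between 1.13 and 2.33 and was called in each. Under the stricter filter it was not tested, and DESeq2 gave it no adjusted p. In the main fit it passed the filter through its sgCdk10 libraries, the group where it was higher, which limits what its call can show.

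Hist1h2be (ENSMUSG00000047246, chr13:23583670-23621124, minus strand), an H2B gene, had 33, 22 and 28 counts in sgCdk10 and 18, 19 and 13 counts in sgControl. The lowest sgCdk10 library, replicate 2, was close to the highest sgControl library. The log2 fold change was 0.69 (SE 0.26, 95% interval 0.15 to 1.23, adjusted p = 0.0372 with edgeR). The call did not hold with DESeq2 (adjusted p = 0.182), nor with edgeR without a filter (adjusted p = 0.0575), nor without sgCdk10 replicate 1 or 3 or sgControl replicate 1 or 3 (edgeR adjusted p of 0.0547 to 0.177). The gene's annotated exons overlap 496 bases of the linker histone gene Hist1h1e on the same strand, so reads there cannot be assigned to either with certainty.

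Hist1h2bc (ENSMUSG00000018102, chr13:23684199-23692908, plus strand), an H2B gene, had 57, 71 and 51 counts in sgCdk10 and 38, 45 and 45 counts in sgControl. The groups did not overlap, which was also so for 51.4% of all genes tested. Its log2 fold change of 0.45 (SE 0.18, 95% interval 0.07 to 0.83) missed the threshold with edgeR (adjusted p = 0.0507). It passed under the stricter filter (adjusted p = 0.0431), with a correction for GC content and length (0.0181) and without sgCdk10 replicate 3 (0.0244). Of its 100-base windows, 25.4% occurred in another gene.

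Hist1h3g (ENSMUSG00000099517, chr13:23535422-23535951, plus strand), an H3 gene, had 12, 11 and 18 counts in sgCdk10 and 5, 9 and 8 counts in sgControl (log2 fold change 0.85, 95% interval 0.08 to 1.62, adjusted p = 0.0712 with edgeR). Hist1h2bg (chr13:23571396-23572013, plus strand), an H2B gene, had 11, 10 and 8 counts in sgCdk10 and 11, 5 and 7 counts in sgControl, and its groups overlapped (log2 fold change 0.29, edgeR adjusted p = 0.597). At these counts the intervals are wide, and that of Hist1h2bg runs from -0.55 to 1.14. Hist1h3g passed the filter on low counts through its sgCdk10 libraries alone.

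Hist1h1c (ENSMUSG00000036181, chr13:23738808-23740367, plus strand), which encodes a linker histone of the H1 family, was the most counted replication-dependent gene after Hist2h2be and per length the highest of the 8 in both groups, at 4.50 CPM per kb in sgCdk10 and 4.19 CPM per kb in sgControl. It had 121, 130 and 135 counts in sgCdk10 and 110, 129 and 111 counts in sgControl. The groups overlapped (log2 fold change 0.10, 95% interval -0.13 to 0.34, adjusted p = 0.487 with edgeR). Hist1h4i (chr13:22040636-22041362, minus strand), an H4 gene, had 23, 16 and 19 counts in sgCdk10 and 20, 16 and 20 counts in sgControl (log2 fold change 0.01, 95% interval -0.54 to 0.57, adjusted p = 0.974 with edgeR).

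**Figure D2:**
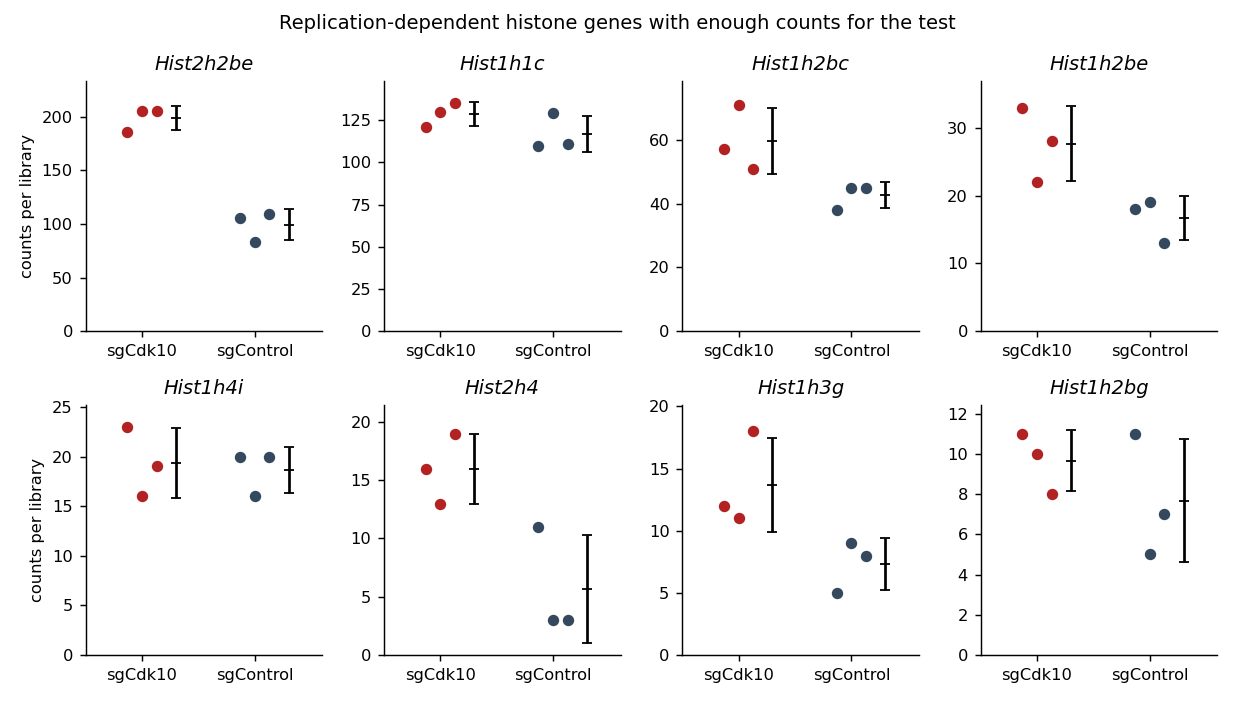
Counts per library of the 8 replication-dependent histone genes that entered the test, with each sgCdk10 library (left) and each sgControl library (right) as a point and the mean and SD beside them; each panel starts at 0. The groups lie far apart for Hist2h2be, lie close for Hist1h2be and Hist1h2bc, and overlap for Hist1h1c, Hist1h4i and Hist1h2bg.

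The other genes among the 12 most abundant had too few counts for a test. Hist1h2al, annotated as a pseudogene, had 7, 10 and 12 counts in sgCdk10 and 7, 4 and 7 counts in sgControl. Hist1h1d, a linker histone gene, had 5, 8 and 7 counts in sgCdk10 and 4, 5 and 4 counts in sgControl. In both genes the lowest sgCdk10 library equalled the highest sgControl library. Hist1h2bh had 7, 2 and 7 counts in sgCdk10 and 6, 8 and 3 counts in sgControl, and Hist3h2a, whose exons overlap 708 bases of Trim17 on the same strand, had 3, 2 and 7 counts in sgCdk10 and 4, 6 and 7 counts in sgControl. No untested gene had more than 12 counts in a library. Replication-dependent genes resemble each other closely: a median of 33.5% of a gene's 100-base windows occurred in another gene, 63 of the 70 shared at least 1, and 26 shared over 50%. How reads that map to several places were counted is not given in the sources used here, and a 0 may mean that such reads were dropped. Reads on overlapping exons may be dropped too. Hist2h3c1, at 0 throughout, shares all 1825 bases of its exons with Gm20634 on the same strand. Hist2h2aa1, Hist2h2aa2, Hist2h2bb and Hist2h3b, also at 0, lie wholly under exons on the opposite strand, and the strand setting is not given. Hist2h2aa1 also shares 529 bases with Gm20634, and Hist2h2bb 226 bases with Gm42743, both on the same strand.

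The 8 variant genes summed to 1820 to 1837 CPM in sgCdk10 and 1806 to 1938 CPM in sgControl, ranges that overlap. Within that sum H1f0, H2afx and H3f3a were called higher and H2afz and H2afy lower, each by less than 0.25 on the log2 scale. H3f3b and H2afv did not pass the test, and H1fx had too few counts for it. That is 3 higher and 2 lower of 7 tested, beside 22.1% and 20.4% of all genes. A call here speaks of a small difference measured on many counts.

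H1f0 (ENSMUSG00000096210, chr15:79028450-79030504, plus strand) encodes H1.0, the linker histone that accumulates in cells that have stopped dividing or are differentiating. Its level was 392, 414 and 420 CPM in sgCdk10 and 363, 361 and 352 CPM in sgControl. Every sgCdk10 library was above every sgControl library. The log2 fold change was 0.19 (SE 0.029, adjusted p = 1.4e-05 with edgeR), and it was called in every alternative run, at 0.17 to 0.22. Per length it reached 199 CPM per kb in sgCdk10 and 175 CPM per kb in sgControl, far above the replication-dependent linker gene Hist1h1c, at 4.50 CPM per kb in sgCdk10 and 4.19 CPM per kb in sgControl. The other linker variant, H1fx, which encodes H1.10, was near the floor, with 7, 9 and 8 counts in sgCdk10 and 8, 8 and 6 counts in sgControl.

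H2afy (ENSMUSG00000015937, chr13:56073619-56136361, minus strand) encodes macroH2A1, an H2A with a large extra domain that is found on repressed chromatin. Its level was 110, 107 and 109 CPM in sgCdk10 and 126, 125 and 121 CPM in sgControl, with no overlap. The log2 fold change was -0.19 (SE 0.033, adjusted p = 5.3e-05 with edgeR), and it was called in every alternative run, at -0.22 to -0.18. H1f0 and H2afy were the variants whose calls held in all of them.

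H2afz (ENSMUSG00000037894, chr3:137864487-137866922, plus strand) encodes H2A.Z, which marks promoters and is highly expressed in dividing cells, and per length it was the most abundant histone gene of all 78, at 321 CPM per kb in sgCdk10 and 374 CPM per kb in sgControl. Of its 100-base windows, 13% occurred in another gene. Its level was 572, 576 and 562 CPM in sgCdk10 and 699, 696 and 598 CPM in sgControl. The sgCdk10 libraries lay close together below all sgControl libraries, and sgControl replicate 3, the library that stood apart over all genes, lay nearest to them. The log2 fold change was -0.22 (SE 0.064, 95% interval -0.38 to -0.06, adjusted p = 0.0388 with edgeR). Without sgControl replicate 3 it was -0.29 (edgeR adjusted p = 1.7e-17). Without any other single library it missed the threshold, at -0.23 to -0.18 (edgeR adjusted p of 0.0504 to 0.103), and likewise with the correction for GC content and length (adjusted p = 0.178).

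H2afv (ENSMUSG00000041126, chr11:6427229-6444443, minus strand) encodes the second H2A.Z protein, from a separate gene. Its level was 24.9, 24.9 and 25.6 CPM in sgCdk10 and 24.0, 23.4 and 22.3 CPM in sgControl. The groups did not overlap, but the log2 fold change of 0.11 (95% interval -0.01 to 0.23) missed the threshold (adjusted p = 0.118 with edgeR); with the correction for GC content and length it was 0.16 and was called (adjusted p = 0.0243). H2afz and H2afv together summed to 595 ± 6.45 CPM in sgCdk10 and 687 ± 58.1 CPM in sgControl (SD, n = 3 each).

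H2afx (ENSMUSG00000049932, chr9:44334694-44336077, plus strand) encodes H2A.X, which is phosphorylated around DNA breaks. It is the variant with both a stem-loop and a poly(A) signal shown above. Its level was 42.0, 41.7 and 44.6 CPM in sgCdk10 and 40.8, 36.9 and 37.2 CPM in sgControl. The groups did not overlap, and the log2 fold change was 0.16 (SE 0.051, adjusted p = 0.0128 with edgeR). The call did not hold with DESeq2 (adjusted p = 0.0796), with the correction for GC content and length (0.0745), without sgCdk10 replicate 3 (0.0818) or without sgControl replicate 2 (0.0610).

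H3f3a (ENSMUSG00000060743, chr1:180800832-180813943, minus strand) and H3f3b (ENSMUSG00000016559, chr11:116021912-116027962, minus strand) encode the same protein, H3.3, the H3 that is placed outside replication. H3f3a stood at 213, 206 and 207 CPM in sgCdk10 and 193, 200 and 201 CPM in sgControl (log2 fold change 0.08, SE 0.030, adjusted p = 0.0373 with edgeR). H3f3b stood at 466, 467 and 461 CPM in sgCdk10 and 475, 496 and 474 CPM in sgControl (log2 fold change -0.05, 95% interval -0.11 to 0.01, adjusted p = 0.138 with edgeR). The call of H3f3a did not hold with DESeq2 (adjusted p = 0.107), without a filter (0.0768), with the replicate number as a block (0.0601) or in 5 of the 6 fits without 1 library. That of H3f3b was made without sgControl replicate 3 (-0.07, edgeR adjusted p = 0.0115). Their sum, the RNA for H3.3, was 674 ± 5.60 CPM in sgCdk10 and 679 ± 14.5 CPM in sgControl (SD, n = 3 each), a difference within the spread of the libraries.

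**Figure D3:**
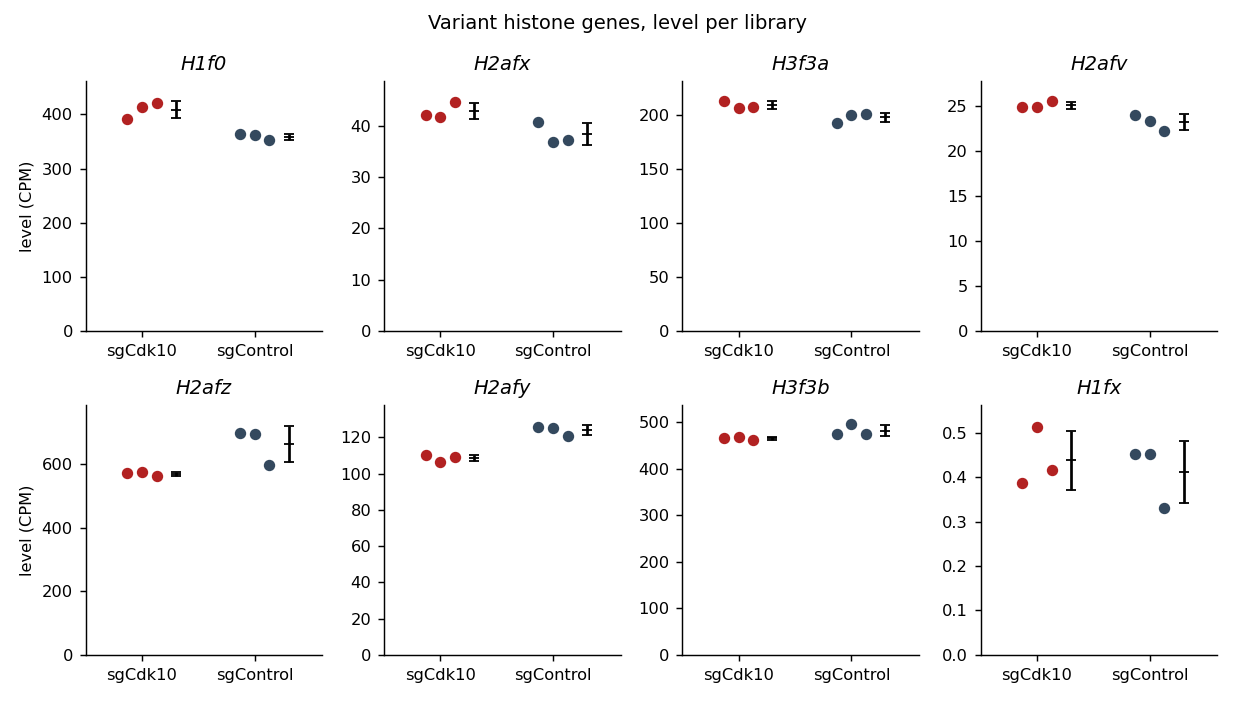
Level in CPM of the 8 variant histone genes in each sgCdk10 library (left) and each sgControl library (right), with the mean and SD beside the points; each panel starts at 0. The groups lie apart by small amounts for H1f0 and H2afy, the third sgControl library of H2afz sits nearest to sgCdk10, and H1fx is below 0.6 CPM throughout.

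Ratios within a library, which need no scaling between libraries, gave the balance between genes of 1 kind per length. H3f3a over H3f3b was 0.388, 0.375 and 0.381 in sgCdk10 and 0.344, 0.343 and 0.360 in sgControl. H2afv over H2afz was 0.0473, 0.0471 and 0.0495 in sgCdk10 and 0.0374, 0.0366 and 0.0405 in sgControl. In both, every sgCdk10 library lay above every sgControl library. An exact permutation test of each gave a two-sided p of 0.1, the smallest that 3 libraries against 3 allow, and 0.133 adjusted over the 4 ratios computed. H2afx over H2afz gave the same p of 0.1 in the exact test, and H2afy over H2afz averaged 0.0497 in sgCdk10 and 0.0489 in sgControl, with an exact p of 0.8.

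**Figure D4:**
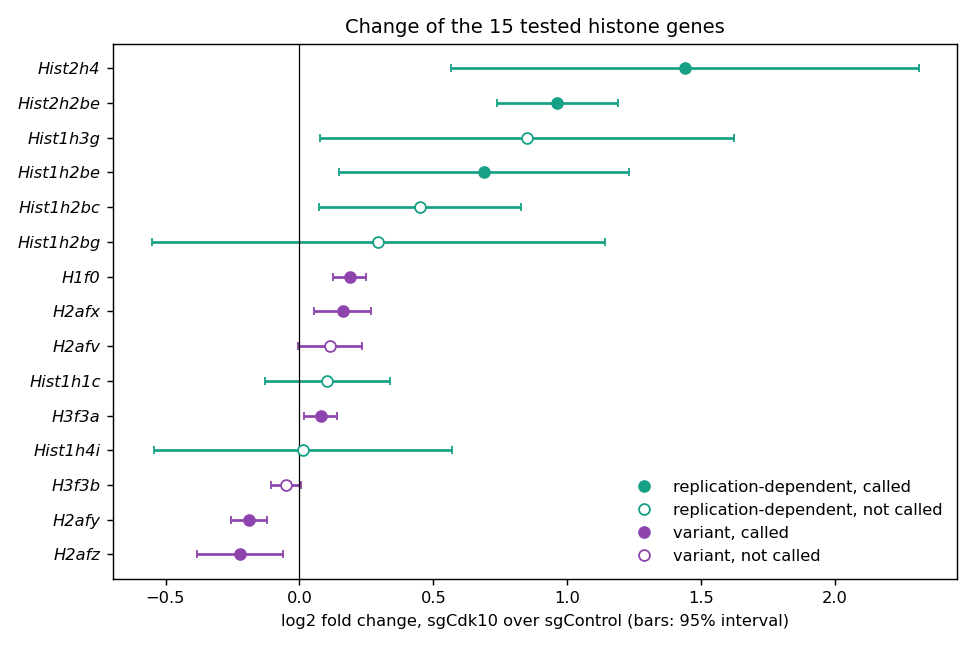
Log2 fold change of sgCdk10 over sgControl with its 95% interval for the 15 tested histone genes, ordered by size; filled points passed the test and open points did not. The replication-dependent genes have wide intervals at 0.01 to 1.44, and the variants have narrow ones between -0.22 and 0.19.

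Genes that serve histone supply were read from lists of their own. For transcription of histone genes, 6 of 14 tested were called higher and 3 lower, beside 22.1% and 20.4% of all genes, with a median log2 fold change of -0.03 (-0.0031 over all genes tested). The count of lower genes is near that background. Yy1, a zinc finger factor that binds histone genes among many others, was higher at 114 ± 1.93 CPM in sgCdk10 and 92.2 ± 1.79 CPM in sgControl (log2 fold change 0.31, edgeR adjusted p = 8.1e-08). E2f1, the G1/S factor, was higher by 0.19 (adjusted p = 0.000482). The 3 subunits of the CCAAT-binding factor NF-Y went apart: Nfya was higher by 0.15 and Nfyb by 0.22, and Nfyc was lower at -0.25 (adjusted p of 0.00142, 0.00674 and 4.6e-05 with edgeR). The call of Nfyb did not hold without sgControl replicate 2 (edgeR adjusted p = 0.0599). Npat, the coactivator specific to replication-dependent histone genes, did not pass the test (-0.09, adjusted p = 0.0872).

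For the 3′ end and decay of histone mRNA, 3 of 23 tested were higher and 4 lower, with a median of 0.03. Neither count exceeds the background of 22.1% higher and 20.4% lower, so the values below describe single genes and not the list. Slbp, the stem-loop binding protein gene, had 77.6 ± 2.04 CPM in sgCdk10 and 79.9 ± 2.32 CPM in sgControl and did not pass the test (-0.04, adjusted p = 0.389 with edgeR). Cpsf3, the nuclease that cuts the 3′ end, was lower at -0.28 (adjusted p = 9.6e-07), as was Cpsf2, another subunit of the same cleavage complex, at -0.23 (6.1e-06). Nelfe, a subunit of the negative elongation factor that acts with the cap-binding complex, was lower at -0.36 (3.0e-07), and Ncbp2, the small cap-binding subunit, was higher at 0.29 (4.6e-05). Eri1, an exonuclease that trims the histone stem-loop end, was lower at -0.12 (adjusted p = 0.00500), a call that did not hold without sgCdk10 replicate 1 (0.0545).

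Of 39 tested histone chaperones and deposition factors, 15 were called lower and 5 higher, beside 20.4% and 22.1% of all genes, with a median log2 fold change of -0.06. DESeq2 called 10 of them lower and 5 higher. Ubn2, a subunit of the HIRA complex that places H3.3, was higher at 118 ± 4.08 CPM in sgCdk10 and 88.5 ± 1.81 CPM in sgControl (0.41, edgeR adjusted p = 1.5e-09). Of the other listed members of that complex, Cabin1 was lower at -0.19 (adjusted p = 0.000294), and Hira (-0.08) and Ubn1 (-0.07) did not pass the test. Daxx and Atrx, which place H3.3 by a separate route, were higher by 0.27 and 0.10. Chaf1b, a subunit of CAF-1, which places H3 and H4 behind the replication fork, was lower at -0.30, and Asf1b, which hands H3 and H4 to it, was lower at -0.13. Chaf1a (-0.06) and Asf1a (0.03) did not pass the test. Kat5 (-0.34) and Vps72 (-0.28), of the complexes that place H2A.Z, were lower. The other listed members, Ep400 (-0.05), Srcap (-0.26, adjusted p = 0.0529), Ruvbl1 (-0.02), Ruvbl2 (-0.06) and Znhit1 (0.08), did not pass the test. Anp32e, which removes H2A.Z, did not pass it either (0.01, adjusted p = 0.763). The abundant nucleolar chaperones Npm1 and Ncl were lower at -0.19 and -0.18, and Mcm2, a replicative helicase subunit that also carries H3 and H4, at -0.23. Of these, all but Ubn2, Kat5, Npm1, Ncl and Mcm2, like Slbp and Npat, were chosen after their values were seen.

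DNA replication and G1/S genes were mostly lower in the same libraries in which the replication-dependent histone sum was higher. Of 35 tested, 26 were called lower and 3 higher, against 20.4% and 22.1% of all genes, and the median log2 fold change was -0.18, against -0.0031 over all genes tested. Tk1, thymidine kinase, had 92.3 ± 1.28 CPM in sgCdk10 and 131 ± 2.88 CPM in sgControl (-0.51, edgeR adjusted p = 9.1e-12). Pole, the leading-strand polymerase, was lower at -0.45, Lig1, which joins Okazaki fragments, at -0.31, the helicase subunit Mcm6 at -0.31 and the ribonucleotide reductase subunit Rrm2 at -0.24. E2f1, Ccne1 and Ccne2 are in this list and in that of transcription, and Mcm2 is in this list and in that of chaperones.

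**Figure D5:**
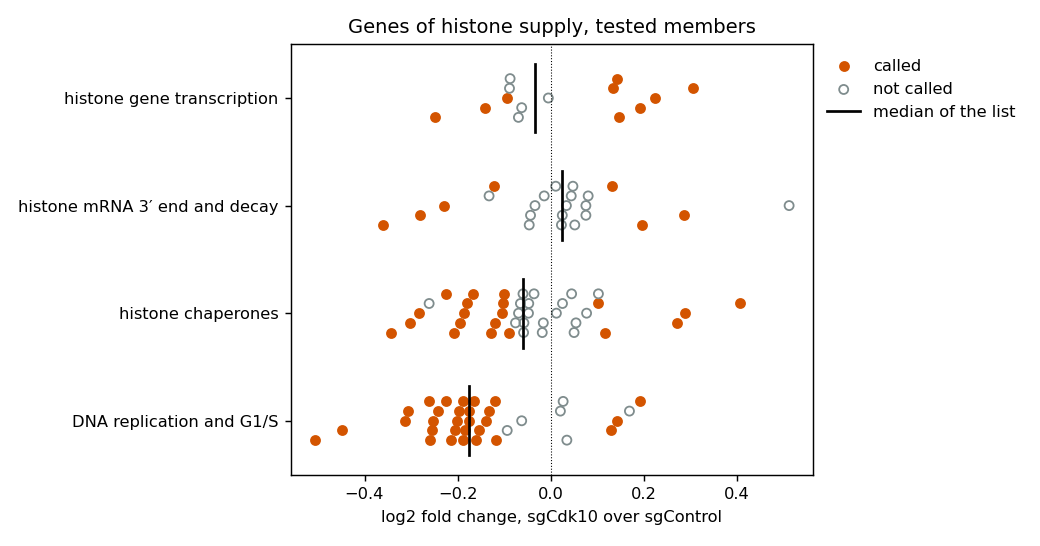
Log2 fold change of sgCdk10 over sgControl for each tested gene in 4 lists, with filled points for genes called and open points for those not called; the black bar is the median of the list. The bulk of the DNA replication and G1/S points lie left of 0 around a median of -0.18, while the medians of the other lists lie between -0.06 and 0.03.

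RNAs listed as lacking a standard poly(A) tail were read beside the replication-dependent genes. Their summed level was 684 to 720 CPM in sgCdk10 and 614 to 654 CPM in sgControl, almost all of it Malat1 and Neat1. Malat1 was higher at 569 ± 11.4 CPM in sgCdk10 and 461 ± 9.44 CPM in sgControl (0.30, edgeR adjusted p = 2.4e-09). Neat1 was lower at -0.34 (adjusted p = 0.0120), a call that did not hold without sgControl replicate 3 (0.0640), and the small nucleolar RNA Rnu73b, at 29, 21 and 24 counts in sgCdk10 and 24, 15 and 21 counts in sgControl, did not pass (0.26, adjusted p = 0.438). The 3 tested genes did not move in 1 direction, and they are too few to speak for RNAs without a poly(A) tail. Whether the share of RNA lacking a poly(A) tail differed between libraries was not tested.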

How the data were processed

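RNA-seq libraries of CT26 cells were compared, 3 labelled sgCdk10 and 3 labelled sgControl. The authors deposited raw, unnormalized counts per Ensembl gene. Alignment and counting tools listed in the submitters' processing notes are featureCounts 2.0.3 and HISAT2 2.2.1, along with DESeq2 1.40.2 and build mm10. The library kit was VAHTS Universal V6 on total RNA, per the labels' protocols. Annotation release, strand setting and multi-mapping rule were not given in the sources used here, so reads of a gene and of its antisense partner or near copies may be mixed or dropped.

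Symbols, exons and coordinates were taken from GENCODE M21 on GRCm38 (52081 of 57010 identifiers matched); identifiers without a symbol held 0.228 to 0.236% of the counts of a library and stayed in the fit. Genes were kept by filterByExpr (minimum count 10, minimum total 15), scaled by TMM (factors 0.995 to 1.003) and compared between groups, with no covariate, by the robust quasi-likelihood test of edgeR 4.0.16 in R 4.3.3. Each standard error is the log2 fold change divided by the square root of F. CPM used TMM-adjusted totals, and levels per length are CPM per kb of merged exons. DESeq2 1.42.0 and limma 3.58.1 (voom) were alternatives, with DESeq2-type size factors, other filters, non-robust dispersions, a replicate block, a loess correction for GC content and length, and each library left out. The script was tested on simulated counts. Members, gene lists and alternatives were chosen with earlier results of these data known.

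The text names Cdk10, all variants, the called and the 12 most abundant replication-dependent genes, the 5 members of each supply list with the smallest p, and tested variants outside the 8. It also names further supply genes, among them Slbp, Npat and many chaperones, that were chosen after their values were seen. Supply lists covered histone transcription, mRNA 3′ end and decay, chaperones, DNA replication and G1/S, RNAs lacking a poly(A) tail and other variants; Symplk, Rn7sk, Terc, Vaultrc5 and Scarna13 were listed but matched no symbol. Marker lists covered leukocyte, endothelial and fibroblast, and epithelial genes.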

Additional observations from a re-analysis of the deposited data

How the results depend on the processing

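Over all genes 5717 were called, and 4179 with DESeq2, 5892 with the correction for GC content and length, 5481 with the replicate block and 4791 to 6056 without 1 library. DESeq2 called 1 replication-dependent gene higher where edgeR called 3, 1 variant higher (edgeR 3), 1 transcription gene lower (edgeR 3), 1 gene of the 3′ end list higher (edgeR 3) and 1 DNA replication and G1/S gene higher (edgeR 3). The correction for GC content and length called 1 variant lower (2 without it) and 5 transcription genes lower (3 without it). Of the chaperones, edgeR called 15 lower, DESeq2 10, and the same correction 21. The fits without 1 library called 11 to 21 of them lower. Without 1 library, 1 to 3 variants were called higher and 1 to 3 lower, 1 to 3 DNA replication and G1/S genes were higher, and 0 to 1 RNAs listed as lacking a poly(A) tail were lower. The log2 fold change of Hist1h4i lay between -0.14 and 0.11 without 1 library, and that of H3f3c between -0.65 and 0.52; neither was called in any of these. The cause of these changes was not tested. The ratio of the summed replication-dependent level lay between 1.42 and 1.46 under every alternative run.

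The replicate numbers shared by the groups showed no pairing of the libraries over genes: deviations of same-numbered libraries correlated at 0.025, -0.057 and -0.096. Whether same-numbered libraries shared a preparation cannot be read from these values. With the replicate block 5481 genes were called, and among the histone genes the call of H3f3a ended. Over the genes named by rule and all alternatives, 530 values kept their direction and side of the threshold, 27 lost the call, 5 gained it and 3 changed sign. The supply genes chosen after their values were seen were not in this tally. With 3 libraries a group, genes under about 10 counts could not be tested, and those near it had wide intervals.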

Other observations

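Listed histone variant genes outside the 8 genes were mostly not detected. Of 12 listed, 7 were at 0 in all 6 libraries and 2 were tested. Cenpa, the H3 of centromeres, had 103 ± 1.20 CPM in sgCdk10 and 100.2 ± 3.20 CPM in sgControl (SD, n = 3 each) and did not pass the test (log2 fold change 0.05, adjusted p = 0.298 with edgeR). H3f3c, annotated as a processed pseudogene, had 15, 10 and 13 counts in sgCdk10 and 6, 11 and 28 counts in sgControl. The highest value was that of sgControl replicate 3, the library that also stood apart over all genes and in H2afz, and without it the log2 fold change of H3f3c was 0.52 (adjusted p = 0.341 with edgeR) where it was -0.28 with it (adjusted p = 0.645).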
